A study of Mus musculus with 2 samples.

Results

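The subject is a set of 10 ion channel and channel-regulator genes of macrophages: the potassium channels Kcnn4, Kcna3 and Kcnj2, the proton channel Hvcn1, the TRP channels Trpv2 and Trpm2, the store-operated calcium entry genes Stim1 and Orai1, and the ATP-gated channels P2rx4 and P2rx7. They are 10 of the 20656 genes that a probe of the array names through a RefSeq accession. A member's probes were all non-control probes carrying one of its accessions. Kcnn4 was chosen by its log2 difference between these same arrays and the others as its companions in macrophages, with their values known, so what follows is a description with no test.

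The cells were bone marrow-derived macrophages, grown from femoral marrow of male mice that were either calpain-6 wild type (Capn6-Wt) or calpain-6 deficient (Capn6-Ko). Calpain-6 is a calpain without the catalytic cysteine of the proteolytic members. Both cultures received M-CSF at 50 ng/mL, the growth factor that drives macrophage differentiation, and the inflammatory cytokine TNF-α at 10 ng/mL, in medium with 10% serum. The labels give day 3 of culture in one place and day 4 in another. Each genotype is 1 Cy3-labelled array of RNA from pooled cells, with 4 mice named in the design text, and whether these are 4 per genotype is not stated. The sources used here do not say how the calpain-6 allele was made.

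Ion channels set how a macrophage's membrane voltage, calcium level and pH respond to signals. KCNN4 (KCa3.1) opens when calcium binds the calmodulin attached to it, lets potassium out and so keeps the membrane negative, which sustains calcium entry. STIM1 senses the calcium content of the endoplasmic reticulum and opens ORAI1 in the plasma membrane when that store empties. KCNA3 (Kv1.3) and KCNJ2 (Kir2.1) are the voltage-gated and inward-rectifying potassium channels best known in macrophages. HVCN1 carries out the protons that the phagocyte NADPH oxidase leaves in the cell. TRPV2 and TRPM2 are cation channels, the latter opened by ADP-ribose. P2RX4 and P2RX7 open on extracellular ATP, and P2RX7 is a well-known trigger of the NLRP3 inflammasome.

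The promoter of Kcnn4, the gene with the largest difference, is shown with that of Stim1, a member with a small one, and that of Cx3cr1, whose levels on the arrays were nearest to those of Kcnn4. Each is the 250 bases before the gene's start in RefSeq's table for GRCm38.p6, read 5′ to 3′ on the strand of the gene. They lie at chr7:24370013-24370262 (Kcnn4, plus strand), chr7:102267569-102267818 (Stim1, plus strand) and chr9:120068297-120068546 (Cx3cr1, minus strand). Capitals mark a match, on either strand, to any of 5 short motifs: TGANTCA (AP-1), GAGGAA (PU.1 and other ETS factors), GGGCGG (the GC box), CCAAT or TATAAA.
Kcnn4: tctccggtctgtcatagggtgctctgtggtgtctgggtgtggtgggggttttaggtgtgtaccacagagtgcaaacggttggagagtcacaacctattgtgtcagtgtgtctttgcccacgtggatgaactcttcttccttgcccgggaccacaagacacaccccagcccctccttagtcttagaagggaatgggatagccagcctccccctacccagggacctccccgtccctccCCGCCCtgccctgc
Stim1: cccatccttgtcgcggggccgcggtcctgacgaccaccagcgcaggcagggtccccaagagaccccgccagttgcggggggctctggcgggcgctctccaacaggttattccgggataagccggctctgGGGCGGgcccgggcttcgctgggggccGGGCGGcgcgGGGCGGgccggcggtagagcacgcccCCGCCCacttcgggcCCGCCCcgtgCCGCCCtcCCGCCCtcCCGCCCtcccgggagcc
Cx3cr1: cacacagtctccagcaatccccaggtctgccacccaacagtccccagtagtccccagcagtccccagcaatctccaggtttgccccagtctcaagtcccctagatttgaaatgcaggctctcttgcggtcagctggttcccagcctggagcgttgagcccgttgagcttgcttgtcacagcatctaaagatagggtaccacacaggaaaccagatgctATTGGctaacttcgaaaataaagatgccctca
The Kcnn4 window held 1 GC box, on the reverse strand 14 to 9 bases before the start, and none of the other motifs. The Stim1 window held 8 GC boxes, and the Cx3cr1 window 1 CCAAT box on the reverse strand. Of 32851 windows of this length in the table, 32.7% held a GC box, 33.9% CCAAT, 23.3% GAGGAA, 12.4% TATAAA and 6.75% TGANTCA. Windows were found for 9 of the 10 members (all but Hvcn1), 12 in all. TGANTCA occurred in 1 of them, upstream of the first P2rx7 start (TGAGTCA, 249 to 243 bases before it). GAGGAA occurred in the windows of Kcna3, Kcnj2 and the first 2 of the 3 Trpv2 starts, whose windows overlap and share the site. No match in the printed windows overlapped another motif's, and these are matches of letters only.

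All 10 members were measured, meaning that each of their 15 probes was well above background on both arrays, so none was lost to the filter on dim signals. Every member probe is a single spot per array, 6 genes have 1 probe and 4 have 2 or 3. On the Capn6-Wt and Capn6-Ko arrays 51.7% and 52.8% of 59305 spots were well above background, and no spot was saturated. The targeted gene does not check the labels, since the Capn6 probe gave signals of 3.93 and 8.65 in Capn6-Wt and Capn6-Ko, not well above background on either array. Signals below are processed intensities on a linear scale before scaling between arrays. Differences are log2 of Capn6-Ko minus Capn6-Wt after each array was set relative to its 75th percentile (377 and 372). The ± of a difference, called its spot SD, comes from how far spots of the same probe scatter at that level. It is the error of the mean over a gene's spots and probes. Genes read from more spots or probes therefore have a narrower ± at the same level. A second error comes from the signal error that the deposited files give for each spot, about 10.0% of a bright signal. It narrows with the number of probes but not with the spots of a probe. It is called the wider SD, though for some dim genes it is slightly the smaller, as for Kcna3 (0.257 against 0.261). For genes other than the members only the ± is given unless stated. Neither covers mice, culture or RNA extraction, and with 1 pool per genotype the difference between genotypes cannot be told apart from that of any other 2 cultures.

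Kcnn4 was the member with the largest difference and the single one past 25%, the size used for counting here (one pool at least 25% above the other). Its probe (A_51_P389636) gave a signal of 1193 in Capn6-Wt against 1711 in Capn6-Ko. The Capn6-Ko pool was thus the higher one, by 0.54 ± 0.080 on the log2 scale, or 1.45-fold. With the deposited signal error the SD of this difference is 0.20, so the distance from 0 was 6.75 times the spot SD and 2.64 times the wider SD. The difference was present in the pixels before background subtraction and scaling, where the spot had a median of 1110 in Capn6-Wt over a local background of 25.5, and 1516 in Capn6-Ko over 29. Among the 6436 genes above the median level it ranked 8 from the top. Of 1620 genes within 0.5 log2 units of its level, 3 had a higher difference, and the SD of their differences was 0.11. These ranks use the contrast that brought Kcnn4 into the set.

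Counted by size, 1 of 10 members was at least 25% above Capn6-Wt in Capn6-Ko, and for 0 members was Capn6-Wt at least 25% above Capn6-Ko. Over all 12872 measured genes 2.64% were past 25% higher in Capn6-Ko and 5.53% past it on the lower side, and among genes above the median level 0.684% and 0.886%. With the arrays centred on their medians, the split over all genes was 558 higher and 535 lower, against 340 and 712 here, and the counts of members stayed 1 and 0. Nothing is read from the member counts, since the choice of Kcnn4 used these values. The median difference was 0.022 over the 10 members and -0.0096 over the 9 others, beside -0.0055 over all measured genes. The 9 others ran from -0.10 to 0.24.

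**Figure D1:**
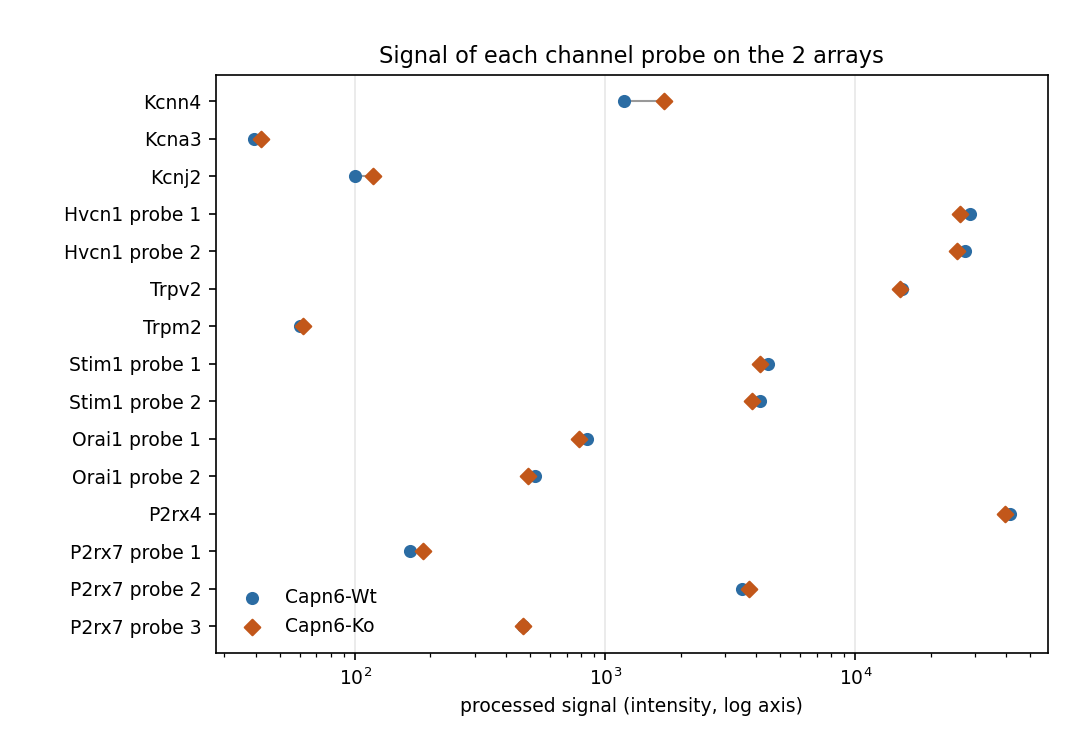
Processed signal (intensity, log axis) of each of the 15 probes, one row per probe, on the Capn6-Wt array (blue circle) and the Capn6-Ko array (orange diamond), with 1 spot per array. The Kcnn4 pair, 1193 and 1711, is the most separated. Brightness differs between probes for reasons of the probe itself, so rows are not to be ranked against each other.

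The other potassium channels had higher values in Capn6-Ko too, but both were dim. Kcnj2, the inward rectifier that holds the resting potential, had signals of 100.2 in Capn6-Wt against 117 in Capn6-Ko. Its difference was 0.24 ± 0.15, 1.61 times the spot SD and 1.12 times the wider SD of 0.22. Kcna3, the delayed rectifier Kv1.3, had signals of 39.3 in Capn6-Wt against 42.0 in Capn6-Ko. Its difference of 0.11 ± 0.26 is smaller than its spot SD and was not detectable at this signal.

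The proton channel gene Hvcn1 was read by 2 probes, and the Capn6-Wt signal was the higher on both. The first probe gave 28674 in Capn6-Wt against 26149 in Capn6-Ko, and the second 27522 and 25569. The probes differed by -0.11 and -0.088, which makes -0.10 ± 0.058 for the gene. This is past 1 spot SD but inside the wider SD of 0.14.

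The TRP channel genes had nearly the same signal in both pools. Trpv2, whose channel takes part in phagocytosis, had 15333 in Capn6-Wt against 15040 in Capn6-Ko, a difference of -0.0096 ± 0.082. Trpm2, the oxidant-responsive channel, had 60.1 and 61.6, a difference of 0.053 ± 0.20. Both differences lay inside the spot SD, and the error of the dim Trpm2 probe would hide a shift below about its own size. The sign of each turned under another setting, to 0.055 for Trpv2 with arrays centred on the median and to -0.0033 for Trpm2 after normexp background correction.

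The partners of store-operated calcium entry, Stim1 and Orai1, were both slightly lower in Capn6-Ko, on all 4 of their probes. The Stim1 probes gave 4457 and 4162 in Capn6-Wt against 4150 and 3847 in Capn6-Ko. Their differences were -0.085 and -0.095, or -0.090 ± 0.055 for the gene. The Orai1 probes gave 842 and 522 in Capn6-Wt against 784 and 490 in Capn6-Ko, with differences of -0.083 and -0.073, or -0.078 ± 0.066 for the gene. Each gene was between 1 and 2 spot SDs below 0 and inside the wider SD, which is 0.14 for Stim1 and 0.14 for Orai1. Agreement between probes of a gene bears on spotting and probe design, not on the cultures, which they share.

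P2rx4 and P2rx7, which follow each other among the protein-coding genes of chromosome 5 in the GRCm38.p6 gene table, had values of opposite sign. P2rx4 gave 41445 in Capn6-Wt against 39585 in Capn6-Ko, a difference of -0.048 ± 0.082 that lies inside its spot SD and that became 0.017 with arrays centred on the median. P2rx7 was read by 3 probes assigned to 3 different RefSeq transcripts. The brightest of them gave 3510 in Capn6-Wt against 3772 in Capn6-Ko (0.12 ± 0.080), the dimmest 166 and 186 (0.18 ± 0.13), and the remaining one 469.5 and 468 (0.014 ± 0.10). The gene value of 0.11 ± 0.061 was 1.75 times the spot SD and inside the wider SD of 0.12. The 3 P2rx7 probes differ from each other by less than 2 of their spot SDs, so no difference between transcripts was resolved. Orai1 lies 5 places beyond P2rx4 in that order, and Hvcn1 11 places before P2rx7. The difference of the Orai1 gene was -0.078 and that of Hvcn1 -0.10, beside 0.11 for P2rx7.

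**Figure D2:**
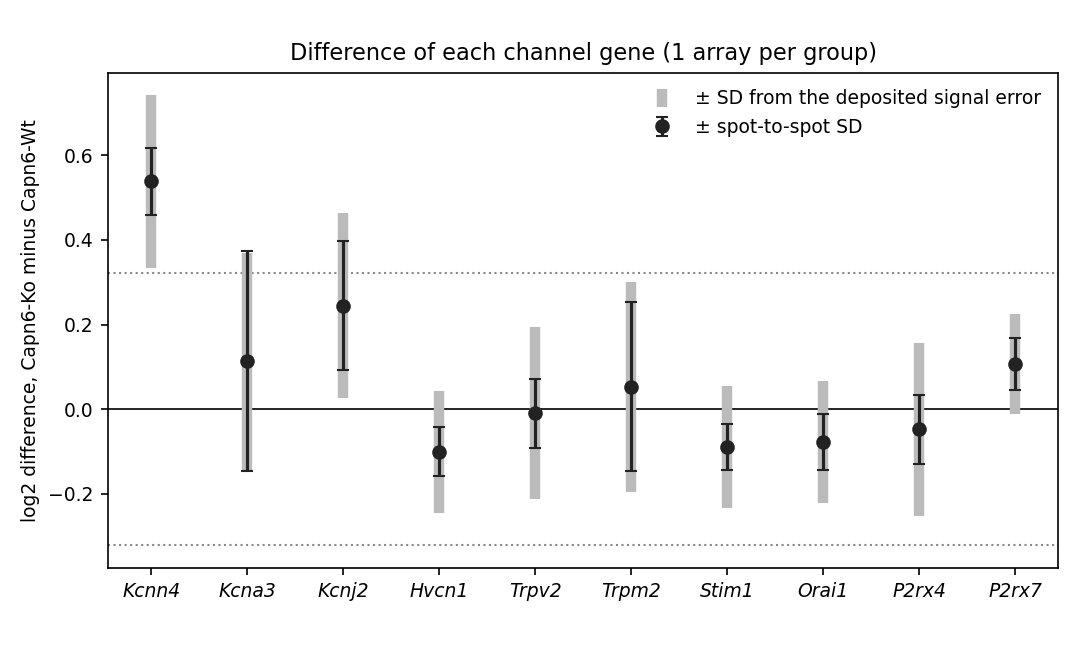
Log2 difference, Capn6-Ko minus Capn6-Wt, of each of the 10 genes from 1 array per group. Black bars are ± the spot-to-spot SD and grey bars ± the SD from the deposited signal error, both for the mean over a gene's probes. Dotted lines mark 25%. Kcnn4, at 0.54, lies above the upper line and the other 9 between the lines.

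In all, 6 of the 10 genes were beyond 1 spot SD, and Kcnn4 alone was beyond 2, where 38.6% and 11.9% of all measured genes were. By the wider error 2 were beyond 1 SD, Kcnn4 and Kcnj2, against 15.7% of all measured genes. Nothing is read from these counts, since the choice of the genes used the same contrast. The potassium channel genes all had values above 0, and the remaining genes lay between -0.10 and 0.11. Apart from Kcnn4, these values are of the size of their errors.

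No measured gene for a protein that acts on KCNN4 was past 25%, and its closest relatives had no value. Kcnn1, Kcnn2 and Kcnn3, the small-conductance channels of the same family, were not well above background on both arrays. A Kcnn3 probe was above it in Capn6-Wt only, at 24.0 against 12.8, at least 1.69-fold higher, and another Kcnn3 probe was not above it on either. All 8 listed partners were measured, with a median of 0.039 and none past 25%. Calm2 and Calm3, which encode the calcium sensor of the channel, were at 0.087 ± 0.058 and 0.016 ± 0.057. Nme2, a histidine kinase that activates the channel, was at -0.045 ± 0.058, and Phpt1, the phosphatase that opposes it, at 0.099 ± 0.080. Trim27, a ubiquitin ligase that restrains the channel's lipid kinase, was at 0.14 ± 0.078, and the kinase gene Pik3c2b was dim, at -0.31 ± 0.28. Mtmr6, a lipid phosphatase that inhibits the channel, was at -0.019 ± 0.078.

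The 5 genes nearest to Kcnn4 by the distance between their log2 levels on the 2 arrays, among genes whose probes share a sign, were Cx3cr1, C5ar1, Msr1, Gamt and Itgb7. The fractalkine receptor gene Cx3cr1 was at a distance of 0.041, with a difference of 0.59 ± 0.063. The complement receptor gene C5ar1 (distance 0.13) differed by 0.39 ± 0.080, and the scavenger receptor gene Msr1 (0.18) by 0.28 ± 0.056. Gamt, which makes creatine, and the integrin gene Itgb7 were at distances of 0.21 and 0.22, with differences of 0.34 ± 0.057 and 0.24 ± 0.080. The measure rests on 2 arrays and on probe brightness, so it names genes of similar signal and difference in these pools and no more.

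Across the wider set of ion channels and transporters, the genes past 25% were dim, as were most genes past 25% on the arrays. The lists hold 223 genes beside the members, in 12 groups, of which 111 were measured. Of these 5 were past 25% higher in Capn6-Ko (4.50%) and 11 past it on the lower side (9.91%), with a median of -0.014. Over all measured genes the shares were 2.64% and 5.53%. All 16 lay at or below the median level of measured genes. Of the 65 genes of these lists at or below that level, 7.69% were that much higher and 16.9% that much lower. Among all genes at or below it the shares were 4.6% and 10.2%. The difference between these shares was not tested. Among the 46 genes of these lists above the median level, 0 were past 25% in either direction, and the SD of their differences was 0.078. Over all genes above that level 0.684% were past 25% higher and 0.886% past it on the lower side. A count of 0 among 46 is near these shares. Kcnn4 was the 1 gene past this size among 53 brighter channel genes, members included (1.89%). Nothing is read from this count, since Kcnn4 was chosen by the same contrast.

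**Figure D3:**
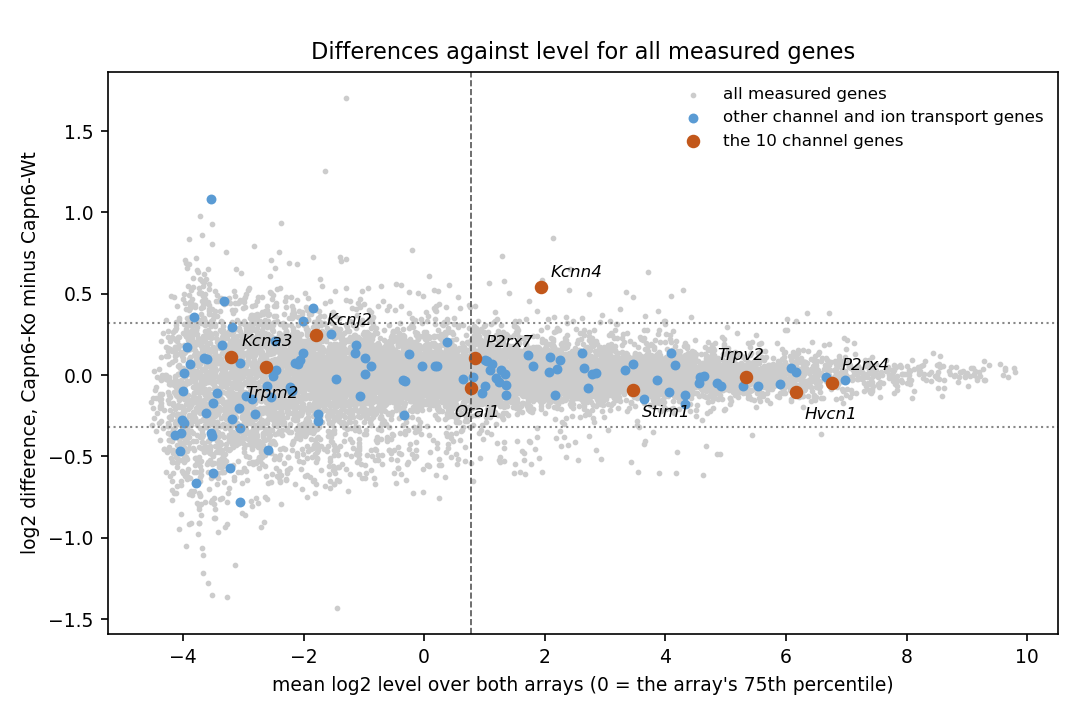
Log2 difference, Capn6-Ko minus Capn6-Wt, against the mean log2 level over both arrays, for all 12872 measured genes (grey), the 111 other channel and ion transport genes (blue) and the 10 channel genes (orange, named). The dashed line is the median level and the dotted lines mark 25%. To the right of the dashed line Kcnn4 is the channel gene outside the dotted lines, and the scatter widens to the left.

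Among the other potassium channels 1 gene was past 25% higher and 3 lower, of 21 measured from 62, with a median of 0.053. The higher one was Kcnk15, a two-pore family member, at 0.36 ± 0.32. The lower ones were Kcna5, a voltage-gated channel that can pair with Kv1.3, at -0.46 ± 0.20 (signals of 73.5 in Capn6-Wt against 52.7 in Capn6-Ko), Kcnj15 at -0.37 ± 0.33 and Kcnj4 at -0.35 ± 0.33. Of the two-pore channels with a bright signal, Kcnk6 was at 0.14 ± 0.078 (6101 and 6627) and Kcnk13 at 0.13 ± 0.084 (2216 and 2400). Kcnk13 has a known part in potassium leak of microglia. Kcna4, with the brightest probe of this list, was at -0.051 ± 0.081. The 8 measured auxiliary subunits had a median of -0.076 and none past 25%, with Kcne3, the brightest, at -0.022 ± 0.10.

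The TRP family had 13 measured genes beside the members, 0 of them past 25% higher and 3 lower, with a median of -0.031. Trpc6, a channel gated by diacylglycerol, differed by -0.57 ± 0.26 (49.6 in Capn6-Wt against 33.0 in Capn6-Ko), Pkd2l2 by -0.66 ± 0.32 and the calcium channel gene Trpv6 by -0.38 ± 0.29. The lysosomal channel gene Mcoln1, the brightest, was at -0.052 ± 0.082. Trpm7, a channel with a kinase domain, was at 0.016 ± 0.084 and Trpm4, which passes sodium when calcium is high, at 0.18 ± 0.13.

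Store-operated entry had 12 measured genes beside Stim1 and Orai1, none past 25%, with a median of 0.029. Orai2 and Orai3 were at 0.030 ± 0.062 and 0.0063 ± 0.057, and Stim2 at -0.098 ± 0.16. Saraf, which switches the STIM1 and ORAI1 pair off, was at -0.069 ± 0.082. Atp2a2, the pump that refills the store, was at -0.24 ± 0.080, the mean of a probe at -0.40 ± 0.12 and one at -0.088 ± 0.10. Itpr3, a store release channel read from 8 spots per array, was at 0.11 ± 0.029, inside its wider SD of 0.20.

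Among the other P2X and pannexin genes 4 of 8 were measured, none past 25%, with a median of 0.043. P2rx1 was at 0.25 ± 0.14. Panx1, which forms a channel that releases ATP, gave 8060 in Capn6-Wt against 7031 in Capn6-Ko, a difference of -0.18 ± 0.079. Of the P2Y receptors, which sense nucleotides through G proteins, 5 of 8 were measured and none was past 25%, with a median of 0.12. The UDP receptor gene P2ry6, read from 10 spots per array, was at 0.12 ± 0.025, which is inside its wider SD of 0.20. P2ry1 was at 0.20 ± 0.081 and P2ry2 at -0.14 ± 0.081.

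Downstream of P2RX7, 8 of 9 inflammasome genes were measured, with a median of -0.017. Il1b, which encodes the cytokine released by the inflammasome, was the 1 member past 25%. It gave a mean signal of 24.3 in Capn6-Wt against 37.1 in Capn6-Ko over at least 9 spots per array. The Il1b difference was 0.62 ± 0.10, with a wider SD of 0.35. Il1b was dim and not above the median level of measured genes. Among all genes at or below that level 4.6% were past 25% higher. The brightest, the adaptor gene Pycard, was at -0.015 ± 0.081 and Casp1 at -0.018 ± 0.080. The pore gene Gsdmd was at 0.094 ± 0.025, inside its wider SD of 0.20. Nlrp3 was well above background in Capn6-Ko only, where one probe was at least 1.65-fold higher (17.7 in Capn6-Wt, 28.8 in Capn6-Ko) and the other at least 1.02-fold higher (20.6 and 20.8).

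Calcium extrusion and mitochondrial calcium genes had 13 measured members, 1 past 25% higher and 2 lower, with a median of 0.040. Slc8a1, the sodium-calcium exchanger NCX1, had the largest value among them at -0.78 ± 0.18. Its probes disagreed, with one at -1.41 (95.7 in Capn6-Wt against 35.7 in Capn6-Ko) and the other at -0.16 (36.8 and 32.6). Atp2b2, a plasma membrane calcium pump gene, was at 0.46 ± 0.27 and Mcu, the mitochondrial uniporter, at -0.32 ± 0.24. Vdac2, the brightest, was at -0.014 ± 0.082.

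Voltage-gated calcium channel genes were dim. Of 9 measured, 2 were past 25% higher and 3 lower, with a median of 0.034. Among all genes at or below the median level, where all 9 lie, 4.6% were that much higher and 10.2% lower. Cacna1a was at 1.08 ± 0.30, from 22.3 in Capn6-Wt against 46.6 in Capn6-Ko, and Cacna1f, the brightest of the list, at 0.41 ± 0.15. Cacnb3 was at -0.60 ± 0.29, Cacnb4 at -0.47 ± 0.33 and Cacna1h at -0.36 ± 0.21. Another Cacna1a probe went the other way and was well above background in Capn6-Wt only, at 23.5 against 15.6. The 6 measured voltage-gated sodium channel genes had none past 25%, and the brightest, Scn8a, was at -0.0075 ± 0.080 on 1 probe while its other 2 probes were not above background.

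Anion channels and acid handling were close to level. Of 20 measured chloride and anion channel genes 16 had values below 0, where 52.2% of all measured genes did, with a median of -0.048. With arrays centred on the median 9 of the 20 were below 0, beside 29.2% of all measured genes, with a median of 0.017. The 1 gene past 25% was Lrrc8c, a subunit of the volume-regulated anion channel, at 0.33 ± 0.16. Clic1, the brightest, was at -0.028 ± 0.082, and Lrrc8a, the obligatory subunit, at -0.11 ± 0.090. The 7 measured acid extrusion genes, whose carriers work beside HVCN1, had a median of -0.012 and none past 25%, with the bicarbonate exchanger gene Slc4a2, the brightest, at 0.0094 ± 0.080. The mechanosensitive channel gene Piezo1 was at 0.020 ± 0.082 and the endolysosomal channel gene Tpcn1 at 0.063 ± 0.078.

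Markers of cell types moved beside these values. Over all measured genes 2.64% were past 25% higher and 5.53% lower. Of 12 macrophage markers 11 were measured, 4 of them past 25% higher and 0 lower, with a median of 0.20. Their summed level was 593 times the 75th percentile of the array in Capn6-Wt and 614 times in Capn6-Ko, most of it from Lyz2 (-0.0078 ± 0.082). Csf1r, the M-CSF receptor, was at 0.20 ± 0.046, and Cx3cr1, C5ar1, Cd14 (0.36 ± 0.076) and Aif1 (0.36 ± 0.079) were the 4 past the size. The 3 below 0 were Lyz2, Mertk at -0.034 ± 0.082 and Mrc1 at -0.045 ± 0.076, and Itgam was at 0.059 ± 0.063. Of 12 stromal markers 11 were measured and Lum was not, 0 were past 25% higher and 8 lower, with a median of -0.49 and a summed level of 97.1 in Capn6-Wt against 66.7 in Capn6-Ko. Tagln, the brightest of them, was at -0.61 ± 0.080, and the smooth muscle actin gene Acta2 at -0.60 ± 0.026 (wider SD 0.20). The 1 stromal marker above 0 was Thy1, which was dim, at 0.17 ± 0.33. All 6 megakaryocyte markers had values above 0, 2 of them past 25%, with a median of 0.27 and summed levels of 31.9 and 35.7. Most of that sum came from Pf4, at 0.13 ± 0.080. The megakaryocyte markers past the size were Gp6, at 0.47 ± 0.16, and Gp9, at 0.33 ± 0.11, both platelet glycoprotein genes. Neither was above the median level of measured genes. In RNA from a whole culture, fewer cells of a type and less RNA per cell cannot be told apart. The part of these markers in the values of Kcnn4, Trpc6 and Slc8a1 was not tested.

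Few markers of T cells, mast cells, B cells and erythroid cells, in which Kcnn4 is also known, were measured. Of the T cell markers 4 of 8 were measured, none past 25%, with a median of -0.043 and summed levels of 2.88 in Capn6-Wt against 2.75 in Capn6-Ko, and Cd3d, Cd3g and Cd8a were not measured. Of 6 mast cell markers 2 were measured, at a median of -0.065 and summed levels of 1.41 and 1.34, and Cpa3, Mcpt4, Fcer1a and Ms4a2 were not. Of 6 B cell markers 3 were measured, 1 of them past 25% lower, with summed levels of 0.827 and 0.852, and Cd79a and Pax5 were among those that were not. Of 6 erythroid markers 2 were measured, with a median of -0.24 and summed levels of 2.60 and 2.18, and Klf1 and Alas2 were among those that were not. Neutrophil markers had 7 of 8 measured, 1 of them past 25% higher, with a median of -0.016 and summed levels of 22.5 and 22.6.

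The Kcnn4 value kept its sign and its side of the 25% size under all 8 other settings of the processing, between 0.47 and 0.60. Most of these could not move it. Kcnn4 has 1 bright probe of 1 spot, so the settings that choose spots or probes returned the same value. The authors' value table is the same signal times a constant. The settings able to move it were median centring (0.60), quantile normalization (0.53) and normexp (0.47). Kcnj2 ran from 0.19 to 0.31 over the 7 settings that gave it a value, Hvcn1 from -0.11 to -0.037, Stim1 from -0.096 to -0.025, Orai1 from -0.083 to -0.013 and P2rx7 from 0.068 to 0.17. Trpv2, Trpm2 and P2rx4 changed sign under at least 1 setting, with values that stayed inside their spot SD.

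**Figure D4:**
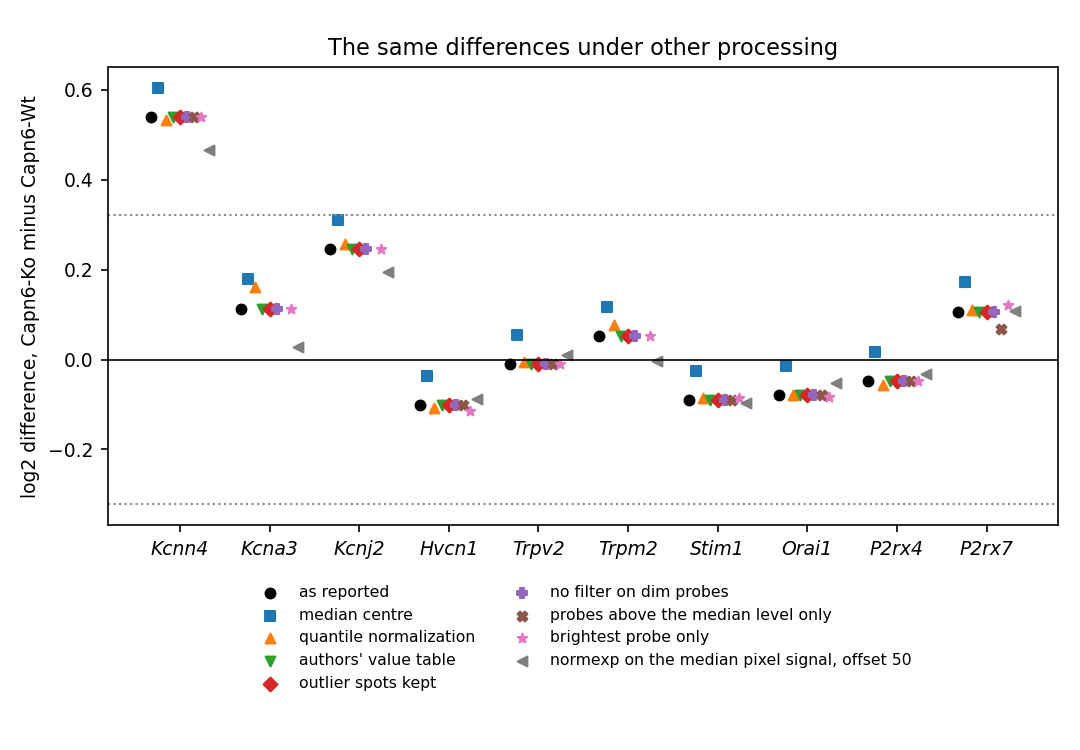
Log2 difference, Capn6-Ko minus Capn6-Wt, of the 10 genes as reported (black) and under 8 other settings (coloured symbols), with dotted lines at 25%. Kcnn4 stays between 0.47 and 0.60, above the upper line, and no other gene crosses a line.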

How the data were processed

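mRNA was measured on 2 one-colour Agilent arrays, 1 pool of macrophages per genotype. The authors deposited scanner files made with Agilent Feature Extraction 10.10.1.1 on a design annotated on mm9, per the file headers. Its processed signal is an intensity on a linear scale that the authors' software background-subtracted within the array and did not scale between arrays, per the file headers. The flag columns of the deposited files are coded values that mark outlier and well-above-background spots. Their value table, again of intensity, equals the processed signal times 1 constant per array (2.39 and 2.42).

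From these files, log2 of the processed signal relative to the array's 75th percentile was taken, outlier spots (161 and 136) were left out and spots of a probe averaged. Measured probes are those with most of their spots flagged well above background on each array, and a gene is the mean of its measured probes. Accessions were matched to symbols in the RefSeq gene table of GRCm38.p6, which gave 20656 genes, 12872 of them measured. Spot spread came from 263 probes with at least 5 spots per array, in 8 bins of level. It was divided by the square root of a probe's number of spots and combined over a gene's probes as the error of their mean. No test was run, as 1 array per group leaves no residual degrees of freedom, and the number of arrays limits the precision.

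The members, the lists, the counting size of 1.25-fold (25%, log2 of 0.32) and the alternatives were chosen with earlier results of these data known. The rule named all members, genes of the channel and pathway lists past this size, the brightest gene of each of those lists and the 5 genes nearest to Kcnn4, and allowed cell type markers of lists whose median lies beyond 0.1. Other genes were named after their values were seen. Values of some list genes are not reported here. Python 3.11.15, numpy 2.4.6, pandas 2.3.3, R 4.3.3 and limma 3.58.1 were used, and the scripts were tested on simulated data.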

Additional observations from a re-analysis of the deposited data

How the results depend on the processing

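Of 77 member values under 8 other settings, 74 moved by less than their spot SD and 73 kept their sign, and the counts of members past 25% stayed 1 higher and 0 lower under each. Keeping outlier spots, dropping the filter on dim probes and using the authors' value table could hardly move any member value. Values under those settings enlarge these counts without testing them. Centring each array on its median moved all genes up, from a median of -0.0055 to 0.059, and the values that moved by more than their spot SD all did so there, with Hvcn1 at -0.037, Stim1 at -0.025 and P2rx7 at 0.17. Under it 51.0% of the genes past 25% were the higher ones, against 32.3% as reported. The number of genes past 25% higher and lower was 81 and 196 after normexp with an offset of 50, which raises dim signals, 1667 and 2589 with no filter on dim probes (20656 genes), and 73 and 109 with probes above the median level only (8407 genes). Kcna3, Kcnj2 and Trpm2 have no probe above that level and so no value there. Normexp on the mean signal was not run, and its form on the median pixel signal was added after the data were seen. No paired analysis was possible because each group has 1 sample.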
